A study of Mus musculus with 10 samples.

Results

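The genes described here are p53 and genes that p53 is known to switch on, followed in murine Mll-AF9 leukaemia cells after knockdown of Meis1. They were listed by name as 33 genes, and each is represented by its brightest probe set, the one with the highest mean log2 level over all 10 arrays among probe sets annotated with a single gene symbol. Of the 33 genes, 32 had such a probe set, as did 18193 genes in all. Trp53, the gene of p53 itself, was not analysed here. The comparison set 5 arrays of cells transduced with a lentivirus carrying a Meis1 shRNA against 5 arrays of cells transduced with the empty lentiviral vector. Both groups were leukaemia cells of 1 line, number 4166, grown in IMDM with 15% FBS and 2 ng/ml IL-3, exposed to puromycin so that transduced cells survived, and collected 48 h after transduction. The labels pair the arrays by number, so that shRNA 1 belongs with control 1. Only 1 shRNA construct is named, and the control vector carried no hairpin, so an effect of losing Meis1 and an effect of expressing a hairpin cannot be told apart.

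The protein p53 is a transcription factor that cells keep scarce, chiefly because Mdm2 marks it for degradation, and that accumulates when DNA is damaged, nucleotides run short or ribosome assembly fails. It binds a site made of a pair of decamers near or inside its target genes. Its targets halt the cell cycle, start cell death, repair DNA and restrain growth metabolism, and some of them, such as Mdm2 and Ppm1d, shut p53 down again. In leukaemia driven by MLL fusions p53 is usually not mutated, and Meis1 works beside Hoxa9 to keep the cells immature and dividing.

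Because p53 acts through its binding site, the 300 bases around the start site of each gene (250 before it and 50 from it on, RefSeq, build GRCm38.p6) were searched for the p53 decamer consensus on both strands. Windows were at hand for 23 of the 32 measured members. An exact decamer stood in the window of 9 of these 23 genes (39.1%), against 2582 of 27025 genes (9.55%) in the whole table. Over windows rather than genes, 10 of 33 member windows (30.3%) held an exact decamer, against 8.36% of 32851 windows in the whole table. Pairs of decamers were also sought, with at most 2 mismatches in all and a spacer of up to 13 bases. The C and G of each core had to match, but the 2 bases between them could differ. Such a pair stood in 4 of the 23 (17.4%), against 4.71% of all genes. The 9 stretches are shown with the decamers in capitals and 10 bases on either side, 5′ to 3′ on the strand of the gene. They are where the member windows match the consensus, exactly or as such a pair, and binding by p53 was not measured. They lie at chr10:117710925-117710954 for Mdm2, chr11:85311112-85311141 for Ppm1d, chr11:40755452-40755491 for Ccng1, chr6:67037428-67037473 for Gadd45a, chr15:85859935-85859974 for Gtse1, chr7:78895927-78895956 for Aen, chr9:36797325-36797354 for Ei24, chr13:96519399-96519428 for Polk and chr10:41887243-41887285 for Sesn1. The genes on the minus strand are Mdm2, Ccng1, Gadd45a, Ei24 and Polk.
Mdm2: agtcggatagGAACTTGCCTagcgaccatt
Ppm1d: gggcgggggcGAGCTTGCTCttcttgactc
Ccng1: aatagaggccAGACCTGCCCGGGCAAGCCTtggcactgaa
Gadd45a: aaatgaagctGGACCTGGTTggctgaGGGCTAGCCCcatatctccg
Gtse1: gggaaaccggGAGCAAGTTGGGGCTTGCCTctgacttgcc
Aen: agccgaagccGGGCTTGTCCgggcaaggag
Ei24: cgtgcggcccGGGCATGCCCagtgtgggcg
Polk: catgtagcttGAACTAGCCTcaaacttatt
Sesn1: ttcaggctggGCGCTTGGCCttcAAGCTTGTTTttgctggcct
The pairs were those of Ccng1 and Gtse1, with 1 mismatch each and no spacer, of Gadd45a, with 2 mismatches and a spacer of 6 bases, and of Sesn1, with 2 mismatches and a spacer of 3 bases. In Gtse1 the pair spans the start site of that window, from 1 base before it to base 19 of the transcript. Gtse1, Polk and Sesn1 each have another window, for another start site, without a match. Among the 9 genes with a window that rose in the comparison described next, 3 held a decamer (Mdm2, Gtse1 and Ei24), and among the 14 that did not rise, 6 did. A match is a description of letters, and a window without one says nothing of sites elsewhere in the gene.

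For 3 genes among those that rose most or that hold a pair, the whole window is shown: Btg2 at chr1:134079106-134079405 on the minus strand, Ercc5 at chr1:44147494-44147793 on the plus strand and Gtse1 at chr15:85859696-85859995 on the plus strand. The first 2 held no exact decamer and no pair, so they stand in lower case throughout, and the capitals of the third are its pair.
Btg2: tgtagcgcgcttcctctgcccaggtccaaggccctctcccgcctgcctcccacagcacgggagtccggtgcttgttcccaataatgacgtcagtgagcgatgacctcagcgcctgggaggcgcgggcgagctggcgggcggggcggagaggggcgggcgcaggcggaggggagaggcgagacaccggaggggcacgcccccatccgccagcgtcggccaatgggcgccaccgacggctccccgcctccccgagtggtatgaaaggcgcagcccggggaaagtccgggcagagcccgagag
Ercc5: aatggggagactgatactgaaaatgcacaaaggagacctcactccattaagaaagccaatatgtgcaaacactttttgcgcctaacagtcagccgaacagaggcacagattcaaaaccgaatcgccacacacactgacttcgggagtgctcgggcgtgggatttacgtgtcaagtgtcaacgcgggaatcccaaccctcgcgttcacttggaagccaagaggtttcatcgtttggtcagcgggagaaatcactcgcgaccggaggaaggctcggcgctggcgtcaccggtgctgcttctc
Gtse1: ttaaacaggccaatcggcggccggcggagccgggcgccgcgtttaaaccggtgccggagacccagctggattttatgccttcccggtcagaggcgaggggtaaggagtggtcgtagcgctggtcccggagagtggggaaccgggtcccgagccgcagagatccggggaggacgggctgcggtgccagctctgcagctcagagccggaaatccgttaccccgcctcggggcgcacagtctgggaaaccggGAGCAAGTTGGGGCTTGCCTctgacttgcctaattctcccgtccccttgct
Ak1, with the third largest increase, has 4 windows, none with a match, and they are not shown.

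The arrays gave probe set intensities on a linear scale from 1.3 to 32400, with array medians between 6.24 and 6.70, and changes were tested on their log2 values with limma in a paired fit over all genes. Meis1 itself was lower in 5 of 5 pairs, with a log2 change of -1.09 (SE 0.08, adjusted p = 0.000636, limma), while its other 2 probe sets, near background, changed by 0.09 and 0.11. Markers of the labelled cell type were present, with 9 of 9 myeloid leukaemia genes measured and summed intensities of 19890 to 34310 in shRNA arrays and 22400 to 39280 in control arrays. Single markers differed widely. Mpo averaged 9845 with the shRNA and 10910 with the control vector, but Itgam only 43.2 and 32.1. Ptprc and Elane, of the 9, fell (-0.35 and -0.41). The 4 measured lymphoid markers summed to 21.1 to 28.5 with the shRNA and 20.7 to 25.3 with the control vector, the 4 erythroid and megakaryocyte markers to 29.0 to 38.0 and 25.1 to 42.2, and the 5 markers of stroma and endothelium to 31.4 to 49.2 and 31.2 to 65.2, with Pecam1 lower (-0.71, adjusted p = 0.0369); their part in the results was not tested. The arrays also carry control probe sets at both ends of Gapdh and actin transcripts, whose 3 prime over 5 prime signal reflects RNA integrity, and its log2 value averaged 0.37 ± 0.02 in shRNA arrays and 0.28 ± 0.06 in control arrays (SD, n = 5 each), higher in 5 of 5 pairs (exact sign-flip permutation p = 0.0625, two-sided, the smallest that 5 pairs allow). Because the arrays measured bulk RNA, fewer cells of a kind and less RNA per cell cannot be told apart.

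With Meis1 knocked down, 12 of the 32 measured members rose, 2 fell and 18 did not pass an adjusted p of 0.05. In the whole comparison 1.08% of genes rose and 2.98% fell, 4.06% in all. Among the 12 were genes of every role: Ercc5, Btg2, Ak1, Phlda3, Ddit4, Mdm2, Zmat3, Gtse1, Pmaip1, Sesn2, Ei24 and Ptp4a3, with folds from 2.48 down to 1.34. The 2 that fell were Trp53inp1 and Xpc. The shRNA arrays lay wholly above the control arrays for 8 members and wholly below them for 2, against 1.53% and 3.45% of all genes. In 5 of 5 pairs 14 members were higher and 3 lower, against 7.45% and 10.3% of all genes. The median change over the 32 members was 0.27 on the log2 scale, beside 0.00 (0.004) over all genes, and it was above 0 in each of the 5 pairs, from 0.19 in pair 5 to 0.58 in pair 4.

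Brightness matters for these shares, since 8 members had a mean log2 level at or under 5 and the others lay higher. In a separate fit over only the 6721 genes above that level, 5.8% of genes rose and 13.6% fell. Of the 24 members in that fit 13 rose and 3 fell, among them Aen, Bbc3 and Sesn1, which did not pass over all genes. In the separate fit the share of members that fell, 12.5%, was thus close to that of all bright genes, and the share that rose, 54.2%, was not. By the calls of the fit over all genes, 2.14% of the 6721 genes rose and 6.61% fell.

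**Figure D1:**
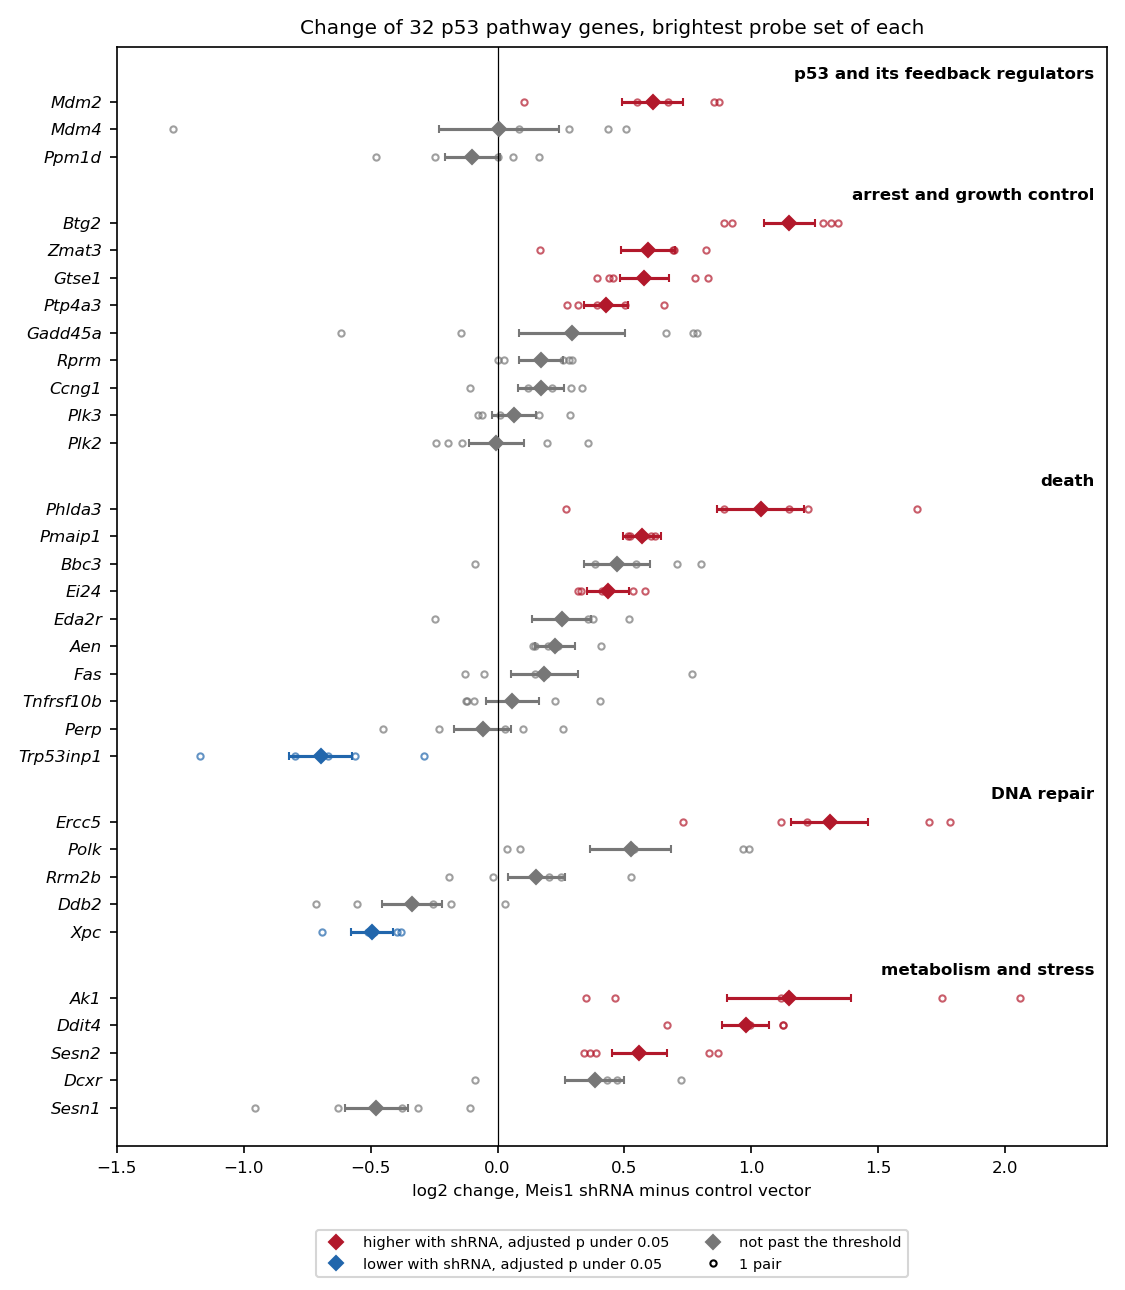
Log2 change (Meis1 shRNA minus control vector) of the 32 measured members by role; diamonds are the fitted change with its SE, open circles the 5 pairs, red and blue the genes past the threshold. The 12 red genes lie between 0.43 and 1.31 and the 2 blue ones at -0.49 and -0.70.

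Among the regulators of p53, Mdm2, the ubiquitin ligase that is both its main inhibitor and its target, rose. Mdm2 read 250.4, 237, 309, 293 and 209 in shRNA arrays 1 to 5, against 138, 149, 211, 160.0 and 194 in control arrays 1 to 5. It was higher in 5 of 5 pairs, but control 3 read higher than shRNA 5, so the groups overlap. The change was 0.61 (SE 0.12, adjusted p = 0.0305, limma), 1.53-fold. Mdm4, the relative of Mdm2 that holds p53 inactive, changed by 0.01 (SE 0.24, adjusted p = 0.994), with shRNA 2 at 82.7 and the other 4 shRNA arrays between 192 and 275. Ppm1d, a phosphatase that removes activating phosphates from p53 and its kinases, changed by -0.10 (SE 0.11, adjusted p = 0.709). Mdm2 lost its call when pair 1, 2, 3 or 4 was left out (adjusted p reaching 0.131) and when its 3 probe sets were averaged (0.30, adjusted p = 0.0778).

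Of the 9 genes of arrest and growth control, 4 rose and 5 did not pass, with a median change of 0.29. Btg2, an antiproliferative protein that speeds the removal of messenger RNA tails, had the lowest adjusted p of all members. Its intensity was 88.1, 107, 106, 113 and 73.7 with the shRNA and 46.4, 43.2, 41.8, 46.6 and 39.8 with the control vector. Every shRNA array lay above every control array, and the control arrays differed little among themselves. Btg2 changed by 1.15 (SE 0.10, adjusted p = 0.000977, limma), 2.22-fold, and its second probe set, near background at a mean log2 level of 1.94 in control arrays, changed by 0.53 (adjusted p = 0.0380 over all probe sets). Zmat3, an RNA-binding zinc finger protein, read 745, 839, 622, 655 and 570.2 with the shRNA and 460, 475, 413, 406 and 508 with the control vector. These groups also did not overlap, with shRNA 5 the lowest of its group and control 5 the highest of its own, and the change was 0.59 (SE 0.11, adjusted p = 0.0208).

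Gtse1, a protein made in S and G2 phase that restrains p53, read 273, 225, 262, 223 and 179 in shRNA arrays and 159, 166, 191, 126 and 137 in control arrays, a change of 0.58 (SE 0.10, adjusted p = 0.0163). Ptp4a3, the phosphatase PRL-3, read 1071, 995, 836, 873 and 736 with the shRNA, against 756, 758, 671, 554 and 609 with the control vector, a change of 0.43 (SE 0.09, adjusted p = 0.0335). Both were higher in 5 of 5 pairs with overlapping groups. Ccng1, cyclin G1, was the brightest member, at 3208 ± 323 with the shRNA and 2845 ± 184 with the control vector (SD, n = 5 each), and changed by 0.17 (SE 0.09, adjusted p = 0.385). Its other 2 probe sets changed by 0.25 and 0.15. Gadd45a, a stress sensor of the G2 checkpoint, changed by 0.29 (SE 0.21, adjusted p = 0.541), since pairs 1, 3 and 4 differed by 0.79, 0.67 and 0.77 but pairs 2 and 5 by -0.62 and -0.14. The polo-like kinases Plk2 and Plk3 and Rprm, which arrests cells in G2, were near background in both groups, with intensities between 3.32 and 7.32, and changed by 0.00 (-0.005), 0.07 (0.065) and 0.17.

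Leaving out pair 1 or 4 ended the call of Gtse1 (adjusted p reaching 0.0737), and leaving out pair 1, 2, 3 or 4 that of Zmat3 (reaching 0.0960) and of Ptp4a3 (reaching 0.132). Ptp4a3 also missed the threshold without the pairing (0.0983), with pairs as a random block (0.0513) and when its 2 probe sets were averaged (0.23, adjusted p = 0.105).

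Of the 10 genes of cell death, 3 rose and 1 fell, while 6 did not pass, and the median change was 0.24. Pmaip1, also called Noxa, a BH3-only protein that neutralises the survival protein Mcl1, rose by a similar amount in every pair. It read 625, 537, 517, 485 and 705 in shRNA arrays and 407, 376, 359.9, 325 and 464 in control arrays, and the 5 pair differences lay between 0.51 and 0.62. The groups did not overlap, and the change was 0.57 (SE 0.07, adjusted p = 0.00548, limma), 1.48-fold. Bbc3, or Puma, is the other BH3-only protein among the members. It read 162, 126, 190.1, 194 and 133 with the shRNA and 124, 134, 109, 119 and 90.9 with the control vector. Its change of 0.47 (SE 0.13, adjusted p = 0.0926) did not pass, as pair 2 went the other way at -0.09; without pair 2 it was 0.61 (adjusted p = 0.0389), and it also passed after quantile normalization (0.58, 0.0464), with trend and robust eBayes (0.0267) and among the genes above a log2 level of 5 (0.0418).

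Phlda3, which competes with the kinase Akt for membrane lipids, read 144, 192, 189, 124 and 80.7 in shRNA arrays and 77.5, 61.1, 85.3, 53.3 and 66.9 in control arrays. It rose by 1.04 (SE 0.17, adjusted p = 0.0158), 2.05-fold, with pair differences from 0.27 in pair 5 to 1.65 in pair 2, and shRNA 5 alone lay within the range of the control arrays. Ei24, a membrane protein of the endoplasmic reticulum tied to p53-driven death, rose by 0.43 (SE 0.08, adjusted p = 0.0247), with 1183, 1268, 1235, 1242 and 1134 in shRNA arrays, all above the 942, 875, 927, 830.4 and 910.5 of the control arrays.

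Trp53inp1, a stress protein that aids the phosphorylation of p53 and promotes autophagy, went the other way. It read 405, 405, 434, 412 and 335 with the shRNA and 643, 598, 755, 503 and 755 with the control vector, so that every shRNA array lay below every control array. The change was -0.70 (SE 0.12, adjusted p = 0.0199), 1.62-fold lower, and its second probe set, at a mean log2 level of 2.86 in control arrays, changed by -0.14 (adjusted p = 0.817 over all probe sets). Aen, an exonuclease that cuts DNA during apoptosis, changed by 0.23 (SE 0.08), higher in 5 of 5 pairs (adjusted p = 0.177), and passed with log2 of the value plus 16 (0.0462) and among the genes above a log2 level of 5 (0.0472). The receptors Fas, Tnfrsf10b (the receptor of the death ligand TRAIL) and Eda2r and the membrane protein Perp stayed dim, with intensities of 3.06 to 11.9 over all arrays, and changed by -0.06 to 0.25. Phlda3 lost its call when pair 2, 3 or 4 was left out (adjusted p reaching 0.0801), Ei24 when pair 1, 2, 3 or 4 was (reaching 0.109) and Trp53inp1 when pair 1, 2 or 3 was (reaching 0.0759). Averaging both of its probe sets took Trp53inp1 to -0.42 (adjusted p = 0.06).

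**Figure D2:**
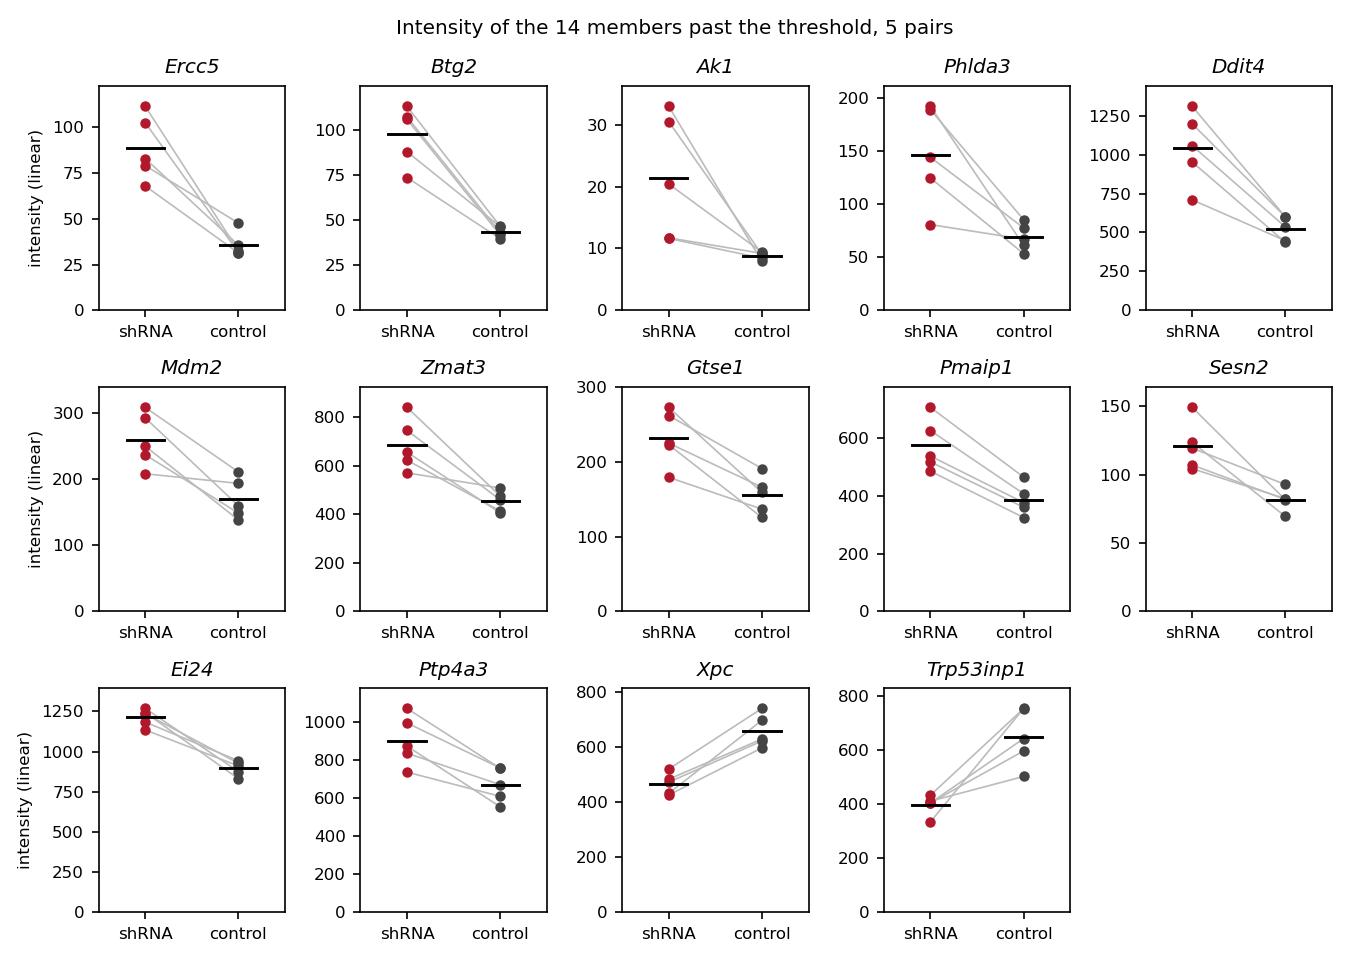
Linear intensity of the 14 members past the threshold, with shRNA arrays at left and control arrays at right, lines joining the 5 pairs and bars at the group means. Btg2 lies between 73.7 and 113 with the shRNA and 39.8 and 46.6 with the control vector, while Ak1 in shRNA arrays spreads from 11.6 to 32.9.

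The 5 DNA repair genes did not move together, with 1 higher, 1 lower, 3 not past the threshold and a median change of 0.15. Ercc5, the XPG endonuclease that cuts on the 3′ side of a lesion in nucleotide excision repair, showed the largest change of all members. It read 78.9, 82.8, 102, 111 and 67.8 in shRNA arrays and 47.6, 35.5, 31.5, 32.4 and 31.3 in control arrays, with the lowest shRNA array above the highest control array. The change was 1.31 (SE 0.15, adjusted p = 0.0035, limma), 2.48-fold, while its second probe set, at a mean log2 level of 2.23 in control arrays, changed by 0.03 (adjusted p = 0.962 over all probe sets). Xpc, which finds the lesion at the start of the same pathway, read 426, 472, 483, 432 and 520.2 with the shRNA, all below the 597, 622, 629, 697 and 740.3 with the control vector. The change was -0.49 (SE 0.08, adjusted p = 0.016), 1.41-fold lower. Ddb2, the ultraviolet damage sensor that hands lesions to Xpc, changed by -0.34 (SE 0.12, adjusted p = 0.173), lower in 4 of 5 pairs.

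Polk, a polymerase that copies past damaged bases, read 66.3, 83.0, 91.0, 101 and 69.7 with the shRNA and 62.3, 42.5, 62.7, 50.6 and 67.9 with the control vector. Its change of 0.52 (SE 0.16, adjusted p = 0.121) did not pass except with trend and robust eBayes (0.0467), as pairs 1 and 5 differed by 0.09 and 0.04. Rrm2b, the p53-inducible subunit of ribonucleotide reductase, changed by 0.15 (SE 0.11, adjusted p = 0.548). Xpc lost its call when pair 1 or 4 was left out (adjusted p reaching 0.0724), and Ercc5 changed by 0.67 (adjusted p = 0.0136) when its 2 probe sets were averaged.

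Of the 5 genes of metabolism and stress, 3 rose and 2 did not pass, with a median change of 0.56. Ddit4, also called Redd1, an inhibitor of the growth kinase mTORC1, read 952, 1057, 1197, 1309 and 709 in shRNA arrays and 437, 536, 600.1, 600.2 and 447 in control arrays. Pairs 1 to 4 differed by 0.98 to 1.13 and pair 5 by 0.67, and the groups did not overlap. The change was 0.98 (SE 0.09, adjusted p = 0.00151, limma), 1.97-fold. Ak1, an adenylate kinase that interconverts adenine nucleotides, read 32.9, 11.6, 30.5, 20.4 and 11.7 with the shRNA and 7.92, 8.43, 9.05, 9.40 and 9.20 with the control vector. It was low throughout and the shRNA arrays differed widely, but all lay above the control arrays, and it changed by 1.15 (SE 0.24, adjusted p = 0.0391). Dcxr, a reductase of dicarbonyls and xylulose, changed by 0.38 (SE 0.12), higher in 4 of 5 pairs (adjusted p = 0.122), and passed without pair 5 (0.50, 0.0297) and with trend and robust eBayes (0.0257).

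The sestrins, which lower mTORC1 activity and limit peroxides, moved in opposite directions. Sesn2 read 107, 149, 119, 124 and 104 in shRNA arrays, all above the 81.8, 81.6, 92.8, 69.4 and 82.4 of the control arrays, and rose by 0.56 (SE 0.11, adjusted p = 0.0301). Its second probe set rose by 0.80 (SE 0.13, adjusted p = 0.0153 over all probe sets), higher in 5 of 5 pairs. The brightest Sesn1 probe set read 259, 147, 288, 269 and 276 with the shRNA and 400.3, 286, 310.4, 349 and 344 with the control vector, a change of -0.48 (SE 0.12, adjusted p = 0.0752) that did not pass, though it was lower in 5 of 5 pairs.

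Another 2 of the 4 Sesn1 probe sets fell. One read 169, 156, 191, 166 and 168 in shRNA arrays, all below the 235, 256, 249.4, 253 and 263 of the control arrays, and changed by -0.56 (SE 0.09, adjusted p = 0.0146 over all probe sets). The other changed by -0.72 (SE 0.11, adjusted p = 0.013), also without overlap, and the fourth, near background, by 0.05. Averaged over its 4 probe sets Sesn1 passed (-0.43, adjusted p = 0.0106), as it did among the genes above a log2 level of 5 (0.0339) and with trend and robust eBayes (0.00937). Leaving out pair 1, 2, 3 or 4 ended the call of Sesn2 (adjusted p reaching 0.126) and of Ak1 (reaching 0.143). Ak1 also missed the threshold with log2 of the value plus 16 (0.55, adjusted p = 0.101) and when both probe sets were averaged (0.48, adjusted p = 0.123).

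**Figure D3:**
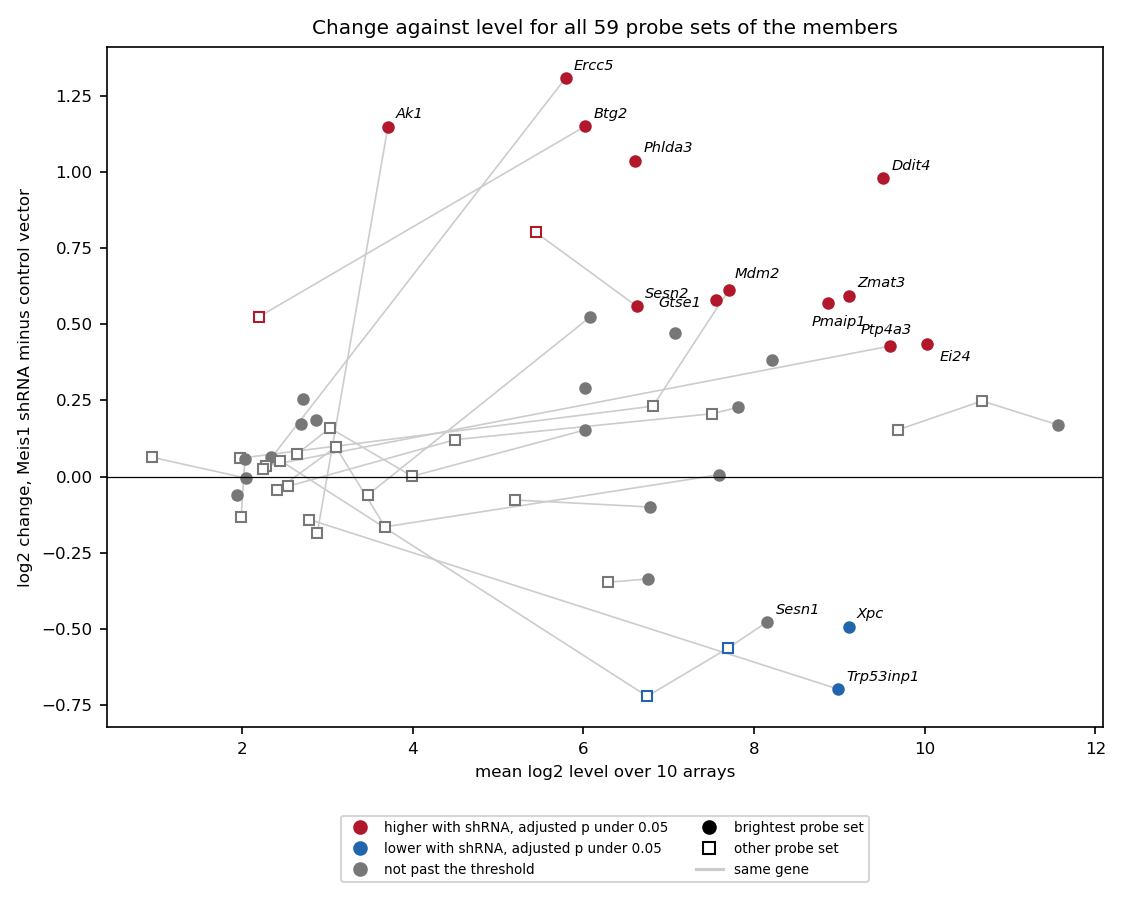
Log2 change (Meis1 shRNA minus control vector) against the mean log2 level over 10 arrays for all 59 probe sets of the members; filled circles are the brightest probe set of each gene, open squares the others, and lines join probe sets of 1 gene. The second probe sets of Ercc5 and Ak1 lie at the dim end with changes of 0.03 and -0.18, while 3 Sesn1 probe sets lie between -0.48 and -0.72.

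Over all members, 59 probe sets were measured, of which 14 rose and 4 fell, against 0.522% and 1.96% of all 45037 probe sets. The 14 called genes had 8 further probe sets between them, spread over 7 genes, and the other 7 genes had 1 probe set each. Of the 8, 2 passed in the direction of the brightest, those of Btg2 and Sesn2, and 7 had the same sign. That count includes changes smaller than their SE: Ercc5 at 0.03, Ptp4a3 at 0.04 (0.035) and the dimmest Mdm2 probe set at 0.06. Ak1 was the exception in sign, at -0.18 (adjusted p = 0.465). Of the 8, 6 had a mean log2 level under 5; the second Mdm2 probe set, at log2 levels of 6.93 with the shRNA and 6.70 with the control vector, changed by 0.23 (SE 0.10, adjusted p = 0.357).

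**Figure D4:**
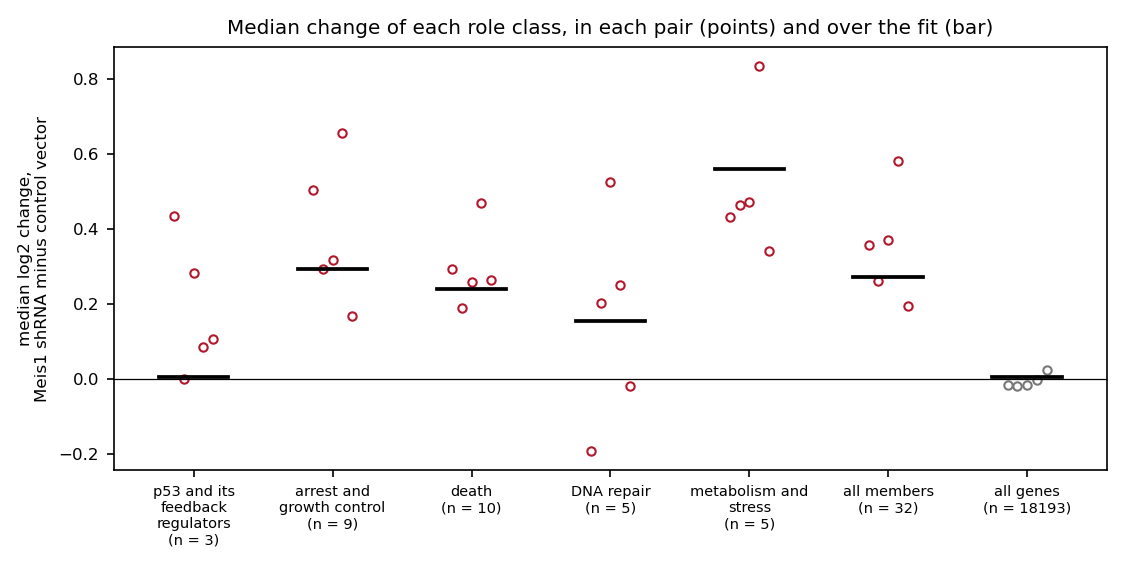
Median log2 change (Meis1 shRNA minus control vector) of each role, of all members and of all genes; open circles are the medians in pairs 1 to 5 from left to right and bars the medians of the fitted changes. Metabolism and stress genes lie between 0.34 and 0.83 in the 5 pairs, DNA repair genes between -0.19 and 0.53.

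Set side by side, the roles of arrest, death and metabolism had medians above 0 in 5 of 5 pairs and the repair genes in 3 of 5. For arrest the pair medians ran from 0.17 to 0.66, for death from 0.19 to 0.47 and for metabolism from 0.34 to 0.83. These ranges overlap, and with 5 to 10 genes a role no difference between roles was tested.

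The size of the change differed between pairs. In pair 5 the median over members was 0.19 and 21 of 32 members (65.6%) were above 0, beside 54% of all genes. In pair 4 the median was 0.58 and 25 of 32 (78.1%) were above 0, beside 49.7% of all genes. Meis1 itself changed by -1.05 in pair 5 and -1.22 in pair 4. The difference of the 3 prime to 5 prime ratio was 0.11, 0.06, 0.09, 0.19 and 0.01 in pairs 1 to 5, so that it too was smallest in pair 5 and largest in pair 4. In pair 5, where the 2 arrays had nearly the same ratio, the median over the members that rose was 0.345. It was 0.754, 0.747, 0.57 and 0.853 in pairs 1 to 4. Within pair 5 Ercc5 differed by 1.11, Btg2 by 0.89, Ddit4 by 0.67 and Pmaip1 by 0.60. Gtse1 differed by 0.39, Ak1 by 0.35, Sesn2 by 0.34, Ei24 by 0.32 and Ptp4a3 by 0.27. Phlda3 differed by 0.27, Zmat3 by 0.17 and Mdm2 by 0.10 (0.105).

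With this ratio entered as a covariate beside the pairing, no member passed (lowest adjusted p = 0.186, limma), 8 of 32 had an unadjusted p under 0.05, against 20 without it, and 2 of all 18193 genes passed. Over all genes 6.45% had an unadjusted p under 0.05 with the covariate and 18% without it. All 14 called members kept their sign, and the median over the 12 that rose was 0.48, against 0.60 without the covariate. The 14 were chosen by their calls in these same arrays, so this describes the fit and is no separate check. Of the 32 members, 23 were above 0 with the covariate and 25 without it. Over all 32 members the median was 0.15 with the covariate, against 0.27 without it. Btg2 was then at 1.03, Ercc5 at 1.03, Ddit4 at 0.76, Phlda3 at 0.75, Ak1 at 0.66, Pmaip1 at 0.56, Mdm2 at 0.26 and Trp53inp1 at -1.08. The SE of Btg2 was 0.19 in that fit and 0.10 without the covariate.

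Counts in the lists of neighbouring genes were read against the same fit over all genes, in which 1.08% of genes rose and 2.98% fell, or 2.14% and 6.61% of the 6721 genes above a mean log2 level of 5. Of 18 measured regulators that act upstream of p53, 2 fell and 16 did not pass, with a median change of -0.03; both lie among the 15 above that level, so 13.3% of these fell. The 2 were Chek1, the checkpoint kinase of stalled replication (-0.56, adjusted p = 0.0485), and Kat5, an acetyltransferase of p53 (-0.55, adjusted p = 0.0238). Both calls ended when pair 1, 2, 3 or 4 was left out (adjusted p reaching 0.146 and 0.0854), and that of Chek1 also after quantile normalization and with log2 of the value plus 16. With the ratio covariate Chek1 was at -0.20 and Kat5 at -0.29. The damage kinases Atm and Atr changed by -0.04 (-0.045) and -0.24 (adjusted p = 0.856 and 0.170), and Cdkn2a, the locus of the Mdm2 inhibitor Arf, was near background at mean log2 levels of 2.51 with the shRNA and 2.79 with the control vector.

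Of 27 further measured targets of p53, 5 rose and 3 fell, while 19 did not pass, and the median change was 0.09. Above a mean log2 level of 5 there were 17, of which 5 rose and 2 fell (29.4% and 11.8%). The largest increases were Thbs1, a matrix protein that blocks vessel growth (1.67, SE 0.31, adjusted p = 0.0246, with pair differences from 0.19 in pair 5 to 2.81 in pair 4), Cd82, a tetraspanin (0.79, SE 0.10, adjusted p = 0.00372), and Lpin1, a phosphatidate phosphatase (0.77, SE 0.13, adjusted p = 0.0154). Thbs1 read 98.2, 97, 677, 762 and 657 with the shRNA and 23.4, 24.3, 280.5, 109 and 576 with the control vector. In both groups arrays 1 and 2 thus lay below arrays 3 to 5. The decreases were Apaf1, the scaffold of the apoptosome (-0.78, SE 0.08, adjusted p = 0.00229), Dram1, an autophagy protein (-0.70, SE 0.09, adjusted p = 0.00517), and Rnf144b, a ubiquitin ligase (-0.64, SE 0.13, adjusted p = 0.0341). Dram1 was near background, at mean log2 levels of 2.70 with the shRNA and 3.40 with the control vector. With log2 of the value plus 16 it changed by -0.24 (adjusted p = 0.0166, limma). The remaining 2 increases, named after their values were seen, were Cdkn1a, the CDK inhibitor p21 (0.75, SE 0.11, adjusted p = 0.0086), and the antiproliferative Tob1 (0.65, SE 0.11, adjusted p = 0.0177). Cdkn1a read 2795, 2612, 2667, 2653 and 1708 with the shRNA, all above the 1492, 1428, 1691, 1360.0 and 1352 with the control vector. Cdkn1a, Apaf1, Dram1 and Cd82 passed with each pair left out. Thbs1 and Tob1 lost their calls when pair 1, 2, 3 or 4 was left out (adjusted p reaching 0.0991 and 0.076), Lpin1 when pair 1 or 4 was (0.077) and Rnf144b when pair 2, 3, 4 or 5 was (0.126). Cd82 and Thbs1 missed the threshold without the pairing, Thbs1 also with a random block, log2 of the value plus 16 or trend and robust eBayes, Rnf144b after quantile normalization, and Rnf144b and Tob1 when probe sets were averaged. With the ratio covariate Thbs1 was at 0.49, Lpin1 at 0.50, Cdkn1a at 0.47 and Tob1 at 0.29.

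Genes that p53 lowers through p21 and the DREAM repressor complex, mostly of mitosis and replication, had a median change of -0.27 (-0.265), with 12 of 13 below 0, beside 48.9% of all genes. Of these 13, 3 fell and 10 did not pass. Above a mean log2 level of 5, 11 of 12 were below 0 and 3 fell (25%), beside 58.4% of all genes at that level below 0 and 6.61% that fell. They were Mcm5, a subunit of the replicative helicase (-0.48, adjusted p = 0.0188), the mitotic kinase Plk1 (-0.44, adjusted p = 0.0421) and cyclin A2, Ccna2 (-0.42, adjusted p = 0.0474), and all 3 calls ended when pair 1, 2, 3 or 4 was left out (adjusted p reaching 0.087, 0.152 and 0.175). Mcm5 also missed the threshold without the pairing, and Plk1 and Ccna2 after quantile normalization. With the ratio covariate all 3 missed it. Over the alternatives that kept all pairs, the smallest decreases were -0.40 for Mcm5, -0.21 for Plk1 and -0.24 for Ccna2. Ddit4, Sesn2 and Pmaip1 are also known targets of the stress factors ATF4 and CHOP. Of 10 other genes of that response, 1 fell (1 of 7 above a mean log2 level of 5) and 9 did not pass, with a median change of -0.02. It was Asns, asparagine synthetase (-0.36, adjusted p = 0.0438). Its call ended when pair 1, 2, 3 or 4 was left out (reaching 0.152) and without the pairing. It also ended with a random block, after quantile normalization, when probe sets were averaged and with the ratio covariate. Atf4, Trib3, an inhibitor of Akt, and Chac1, which breaks down glutathione, changed by 0.01 (0.015), -0.16 and 0.03.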

How the data were processed

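RNA of 10 samples was hybridised to 1-colour Affymetrix mouse arrays, 1 array each. The deposited intensity values were made with RMA, per the submitters' processing notes (version and settings not given in the sources used here). They are on a linear scale, so the authors appear to have undone RMA's log2 step, a reading that rests on the values. No genome build for the probes is given in the sources used here. RMA compresses large changes, and the number of arrays limits the precision.

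Values were log2-transformed without a pseudocount. Of 45101 probe sets, 64 controls were left out. Each of 18193 genes took its brightest single-symbol probe set; the remaining probe sets were tested in a fit over all 45037. Changes (shRNA minus control) were tested with limma (3.58.1, R 4.3.3; lmFit, eBayes) with the pair as a fixed block, two-sided, Benjamini-Hochberg threshold 0.05. The labels state the pairing; over 11215 probe sets above a mean log2 level of 5, same-numbered samples deviated together (correlations 0.310 to 0.600), though the highest correlation with another number was nearly as high for pairs 1 to 4 (0.234 to 0.579; 0.053 for pair 5). The labels do not say whether samples were separate cultures, so p-values reflect only how these samples vary, perhaps for technical reasons. The fit was tested on simulated data.

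Named genes were all members, their other probe sets, Meis1 and, per neighbouring list, the 3 largest called changes each way; Atm, Atr, Cdkn2a, Cdkn1a, Tob1, Atf4, Trib3, Chac1 and the marker genes were named after their values were seen. Members and lists were chosen with earlier results of these data known. Alternatives covered pairing, scaling, pseudocount, brightness, probe set summary, eBayes options, array weights, the 3 prime to 5 prime ratio and each pair left out.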

Additional observations from a re-analysis of the deposited data

Results flagged for a closer look

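In 66 groups of 5 arrays (each measured member and Meis1 in each group), a gap test for 1 array far from the other 4 marked 3, where chance marks about 1 in 20 groups. Fas, the death receptor, read 11.89 in shRNA 4 and 6.41 to 7.29 in the other shRNA arrays. Trp53inp1 read 335.2 in shRNA 5 and 405 to 434 in the other shRNA arrays, so its largest pair difference, -1.17, is that of pair 5. Sesn1, in its brightest probe set, read 147.3 in shRNA 2 and 259 to 288 in the other shRNA arrays; in the next Sesn1 probe set the same array read 156, beside 166 to 191.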

How the results depend on the processing

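Of the 14 called members, Btg2, Pmaip1, Ercc5 and Ddit4 passed with each pair left out, and 10 passed in every other alternative run except the covariate fit. Without the replicate block 13 of the 14 passed (11 higher, 2 lower), with 500 genes in all. With each pair left out the count of genes ranged from 243 to 929, of higher members from 4 to 13 and of lower members from 0 to 2. It was 1305 genes among those above a log2 level of 5 and 1497 under eBayes with trend and robust options. Entering the RNA integrity ratio as a covariate left 2 genes, with 0 members higher and 0 lower, and Meis1 at -0.98 (adjusted p = 0.186). The share of all calls that were higher was 196 of 739, against 308 of 687 after quantile normalization; 13 members were then higher and 2 lower. Above a log2 level of 5 the median of arrest genes was 0.50, of metabolism genes 0.47 and of death genes 0.45, so that the order of arrest and metabolism turned, and of arrest genes 0.07 with the covariate. With pairs left out the median of the p53 regulators ranged from -0.12 to 0.33. The 8 dim members were not part of the fit over genes above a mean log2 level of 5. No called member, chosen by its call in these same arrays, changed sign. Uncalled members that did were Ppm1d (0.002 after quantile normalization, 0.097 with the covariate), Mdm4 (-0.033 with median centring, -0.027 over averaged probe sets, -0.082 with the covariate), Plk2 (0.029) and Tnfrsf10b (-0.037) over averaged probe sets, and, with the covariate, Ccng1 (-0.013), Gadd45a (-0.323), Fas (-0.099) and Perp (0.088). With pairs left out Mdm4 ranged from -0.119 to 0.327, Plk2 from -0.095 to 0.054, Perp from -0.137 to 0.039 and Tnfrsf10b from -0.028 to 0.104. The cause was not tested.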
